A study of Drosophila melanogaster with 6 samples.

Results

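The regions described here are sites on the 4 large autosome arms of Drosophila melanogaster (2L, 2R, 3L and 3R) that were called as peaks for the chromatin protein Jarid2 in both of its libraries, were called for the protein Polycomblike (Pcl) in neither of its libraries, and lay more than 50 kb from every Pcl peak. Peaks of the 4 lists were merged where they overlapped or touched, which gave 7007 regions on all sequences and 5682 on these arms. Peaks of both Jarid2 lists lay in 740 regions of the arms, and 347 of these, or 46.9%, met the rule. The regions were chosen by the presence and position of peaks in these lists, so their number and their distance from Pcl are a description. Of the other Jarid2 regions on the arms, 277 were also Jarid2-only but had a Pcl peak within 50 kb, 87 were called in all 4 lists, and 29 had peaks of 1 Pcl list.

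Jarid2 and Pcl work as partners of the Polycomb enzyme that places methyl groups on histone H3, a mark that keeps developmental genes silent. Each belongs to a variant form of that enzyme complex of its own, and such partners help to bring the enzyme to chromatin. Regions where only Jarid2 was called, with no Pcl site in the wider neighbourhood, are places where the peak lists of these partners differ.

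Chromatin was prepared from 12 to 24 h embryos, in 1 group with Jarid2 and in the other with Pcl fused to BioTAP, a tag that is captured by IgG and, in a further step, by streptavidin. Both groups thus carried a tagged protein. Strain, genotype and the promoter that drives the tagged protein are not given in the sources used here. There were 2 libraries for each protein, A and B, and 1 input for each, 6 samples in all, and each list was called on its own library. Nothing in the labels says that A and B came from separate collections of embryos, so their difference may be technical. The names of the Jarid2 and Pcl files carry different lane marks, so protein and lane cannot be told apart. Whole embryos hold many cell types, and binding in few cells cannot be told apart from weak binding in many. The lists held 1631 Jarid2 A, 887 Jarid2 B, 4100 Pcl A and 3165 Pcl B peaks on these arms. Coordinates are 1-based in build dm3. No annotation of that build was used, so genes at the regions are not named and no sequence is shown.

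The regions were narrow, of modest enrichment, and close in summit position between the libraries. Their median width was 316 bp (quartiles 261 and 397 bp, range 165 to 1664 bp). The fold enrichment at the summit, as the authors' caller gave it for the strongest peak of a list in the region, had a median of 3.39 in Jarid2 A (range 1.87 to 8.99) and 2.95 in B (range 1.78 to 6.11). The summit, the base where a peak is highest, differed between the libraries by a median of 18 bp.

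The strongest region by mean rank of fold was on 2L from 10506471 to 10506828. It was 358 bp wide, with a fold of 6.85 in Jarid2 A and 6.11 in B. Its summits lay 9 bp apart, at 10506719 and 10506710, and the nearest Pcl peak was 152 kb away. A neighbour on 2L from 10544779 to 10545197 had a fold of 8.99 in Jarid2 A, the highest of the 347, and of 4.92 in Jarid2 B. These libraries ranked it 1 and 17. On 2R from 15051580 to 15052207 the folds were 6.53 and 5.15, with summits 4 bp apart. On 3L from 7797574 to 7798055 they were 6.08 and 5.75, with summits 3 bp apart. The last of these was the closest to Pcl of the 10 strongest, at 62.5 kb.

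The other 6 of the 10 strongest regions were on 2R from 18479844 to 18480717 (folds of 6.30 in Jarid2 A and 5.06 in B), on 3L from 7149930 to 7150271 (5.59 and 5.28), on 3R from 10306273 to 10307514 (5.89 and 5.12), on 3L from 17480650 to 17481918 (5.33 and 5.14), on 2R from 14424188 to 14424545 (5.07 and 5.22) and on 3L from 8070365 to 8070961 (5.45 and 4.93). All 10 had a fold of at least 4.92 in both libraries and summits at most 42 bp apart. The background at the summit, the denominator of fold recovered as described below, was under the median in all 10. In Jarid2 A it was 6.23 to 14.8 fragments, against a median of 16.8 over the 347 regions. In Jarid2 B it was 7 to 11, against a median of 13 over 334 regions, so a high fold here rests partly on a low background. They lay on all 4 arms, with 2 on 2L, 3 on 2R, 4 on 3L and 1 on 3R.

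Regions strong in both lists were few. Both folds exceeded 4 in 28 of the 347 regions, or 8.07% (Wilson 95% interval 5.64 to 11.4%), and among all 740 Jarid2 regions of the arms the share was 9.46%. Of these 28 regions, 11 were on 3L, 9 on 2R, 5 on 3R and 3 on 2L. A q at or below 1e-05 in both lists was reached by 187 regions, or 53.9% (48.6 to 59.1%), against 53.5% of all 740. Both shares were close to those of all Jarid2 regions. A fold under 2 was seen in 2 regions in Jarid2 A and in 17 in Jarid2 B.

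In 293 of the 347 regions, or 84.4%, the width was at most 500 bp. Only 6 were wider than 1000 bp. The widest was on 3L from 1463387 to 1465050, 1664 bp. Its fold was 3.94 in Jarid2 A and 2.21 in B, and its summits were still 11 bp apart. The next were the region on 3L from 17480650, 1269 bp, and that on 3R from 10306273, 1242 bp, both named above. A single peak of each library made up nearly all regions, since 9 held more than 1 peak of Jarid2 A and 3 more than 1 peak of Jarid2 B. The strongest peak of a region had a median width of 291 bp in Jarid2 A and 258 bp in B. The narrowest peaks of these lists were 140 and 154 bp.

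Replicate summits lay at most 10 bp apart in 105 regions, or 30.3%, at most 50 bp apart in 299, or 86.2% (Wilson 95% interval 82.1 to 89.4%), and at most 100 bp apart in 335. In 5 regions they were at the same base. The summit of Jarid2 B was to the right of that of Jarid2 A in 177 regions and to the left in 165, close to equal numbers. The peaks of the 2 libraries had to be joined in 1 region, which bounds how far summits could lie apart. In 338 regions the summit of Jarid2 A lay inside the strongest Jarid2 B peak, and in 340 the reverse held. Summit distance had a median of 19.5 bp in the 116 regions with the lowest fold in Jarid2 A and of 17 bp in the 116 with the highest. By fold in Jarid2 B these medians were 18 and 19 bp, so the libraries gave no common direction.

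**Figure D1:**
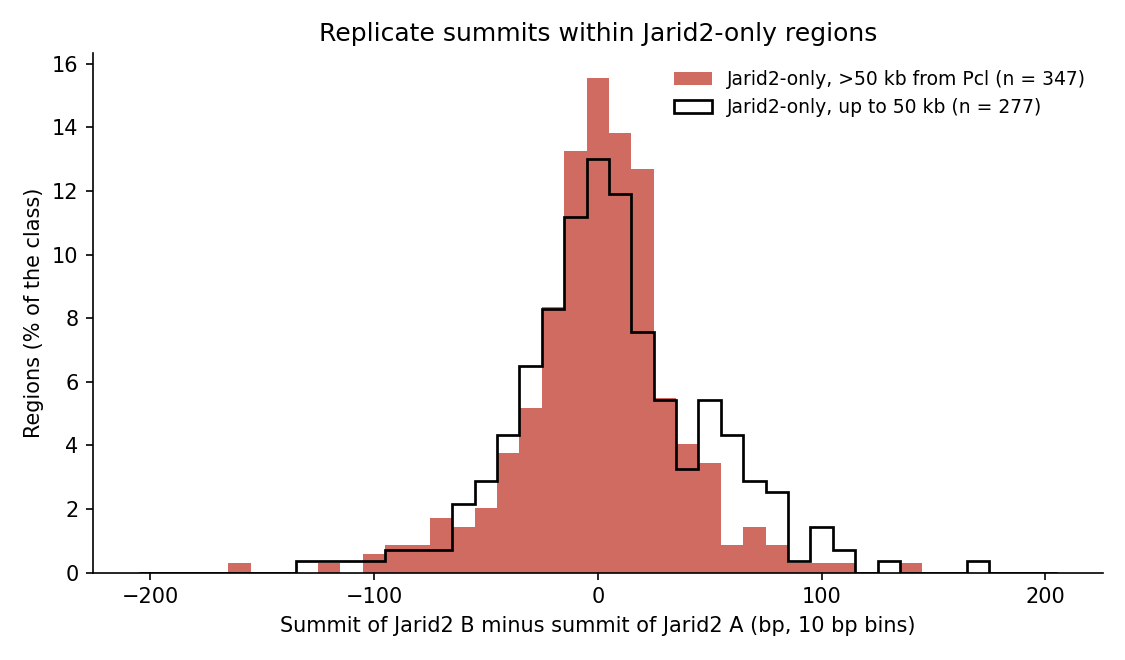
Position of the Jarid2 B summit minus that of the Jarid2 A summit in bp (x axis, 10 bp bins) and share of the regions in percent (y axis), for the 347 Jarid2-only regions more than 50 kb from Pcl (filled) and the 277 up to 50 kb from it (outline). Regions with summits over 200 bp apart, 7 and 4, are beyond the axis, and the filled bars are centred on 0, with 86.2% of regions within 50 bp.

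Only 7 regions had summits over 200 bp apart. The largest distance was 584 bp, on 3L from 18009202 to 18010057, a region with 3 peaks of Jarid2 A and 1 of Jarid2 B. The next were 543 bp on 2L from 19190198 to 19191403, with 1 peak of Jarid2 A and 3 of Jarid2 B, and 391 bp on 2L from 7575634 to 7576127, with 1 peak of each. In the first and second of these, the libraries divided a wide region differently.

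Summits within 50 bp were less frequent in the 277 Jarid2-only regions closer to Pcl, at 75.8% (70.4 to 80.5%), and the median distance there was 24 bp. The share was higher in the distant regions on each of the 4 arms. It was 90.4% against 74.7% on 2L, 85.4% against 78.2% on 2R, 78.4% against 71.6% on 3L and 91.8% against 80.3% on 3R. Each value comes from 1 pair of libraries, so the difference has no replicate and was not tested. Nor did the median distance change steadily with distance from Pcl. It was 18.5 bp up to 5 kb from Pcl, 33 bp at 5 to 10 kb, 19.5 bp at 10 to 20 kb and 29 bp at 20 to 50 kb. Beyond, it was 19 bp at 50 to 100 kb, 17 bp at 100 to 200 kb and 19 bp over 200 kb. In the 87 regions called in all 4 lists, which had a median width of 2545 bp, the share within 50 bp was 43.7% and the median distance 66 bp. There the peaks of the 2 Jarid2 libraries could be joined through a Pcl peak without overlapping each other. The Jarid2 A summit lay inside the strongest Jarid2 B peak in 59.8% of the 87, against 97.4% of the distant regions.

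Fold is a ratio to a background, and the number of DNA fragments behind each value can be recovered from fold and p. Under the definitions of the MACS2 caller, a whole number of fragments at the summit matched fold and p, to a relative tolerance of 0.0001, for every peak of both Jarid2 lists. In Jarid2 B 13 of the 347 regions had more than 1 such number, and 334 were used. The summit held a median of 59 fragments in Jarid2 A (range 20 to 136, 347 regions) and 173 in B (range 68 to 277). The strongest region, on 2L from 10506471, had 81 fragments in Jarid2 A (exact Poisson 95% interval 64.3 to 100.7) and 220 in B (191.9 to 251.1). Such intervals cover counting error only, that of the summit and not that of the background.

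The lowest background of a list was taken as its genome-wide floor, the mean number of fragments that the caller expects at any position. It was 6.23 fragments in Jarid2 A and, before scaling, 19.8 in Jarid2 B. With the narrowest peak of a list, 140 and 154 bp, taken as the fragment length, Jarid2 B was 2.89 times as deep per base as Jarid2 A. Divided by these means, the summit height of the 334 regions had a median of 9.47 times the library mean in Jarid2 A (quartiles 6.78 and 12.4) and 8.73 times in B (quartiles 6.78 and 10.2).

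The libraries ordered the regions alike by height and much less alike by fold. Over the 334 regions Spearman's correlation between the libraries was 0.93 for height and 0.31 for fold. These are descriptions across regions of the same pair of libraries, which share genome positions and local read coverage. Of the 50 highest regions in each library 42 were the same by height, and 21 by fold. The local background, the denominator of fold, had a correlation of 0.73 between the lists. In Jarid2 B fold fell with this background (Spearman's correlation -0.69) and had a correlation of 0.02 with the fragments at the summit, whereas in Jarid2 A the values were -0.15 and 0.54.

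**Figure D2:**
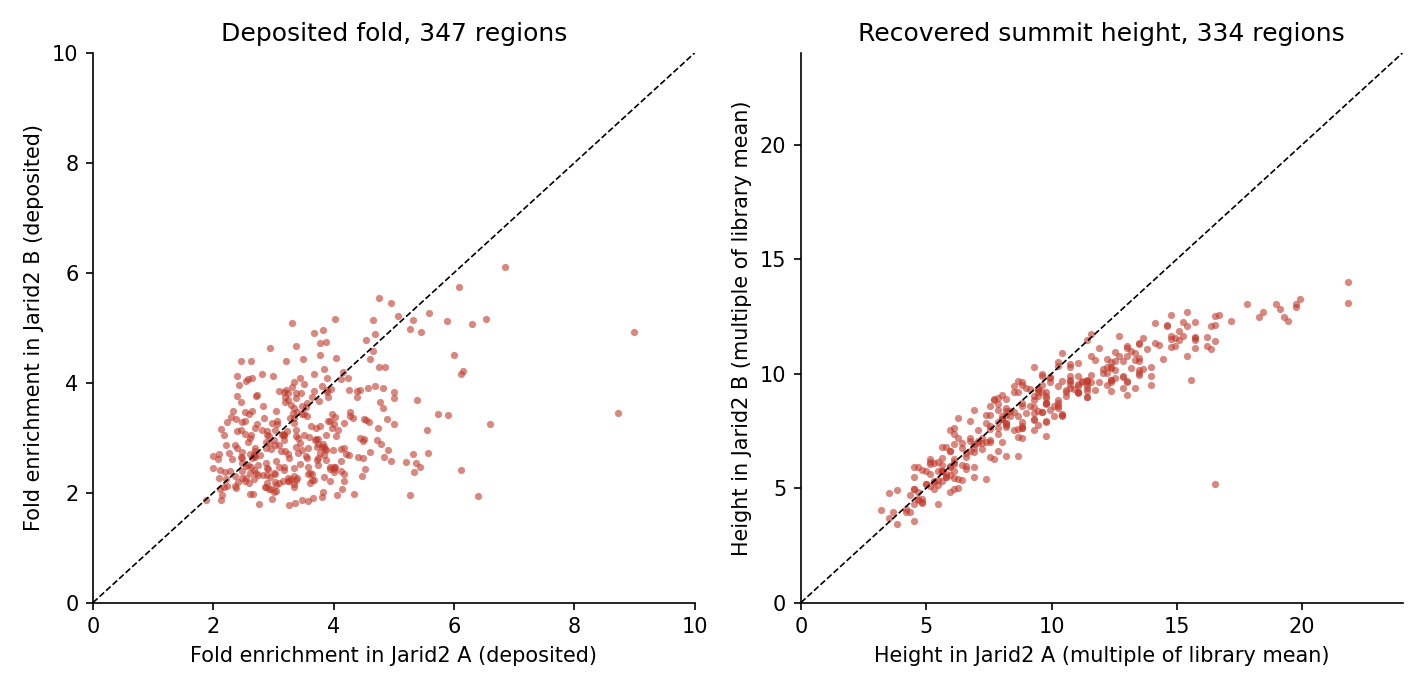
Jarid2 A (x axis) against Jarid2 B (y axis) for the Jarid2-only regions more than 50 kb from Pcl, 1 point a region, with a dashed line of equality. On the left is the deposited fold of 347 regions (Spearman's correlation over the 334 used on the right 0.31), and on the right the recovered summit height as a multiple of the library mean, 334 regions (0.93), where points with tall summits fall below the line.

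The tallest regions were relatively lower in Jarid2 B. In the 112 regions with the smallest height in Jarid2 A the ratio of the heights, A over B, had a median of 0.996 (quartiles 0.896 and 1.06). In the 111 with the greatest it was 1.28 (1.2003 and 1.36), and 109 of these 111 were taller in Jarid2 A. A split by height in Jarid2 A favours this order, so the regions were also split by height in Jarid2 B, after the data were seen. The medians were then 1.02 in the lowest 112 and 1.25 in the highest 111, of which 102 were taller in Jarid2 A. Split by the geometric mean of both heights, they were 1.01 and 1.28. The heights of the 334 regions reached 21.8 times the mean in Jarid2 A and 13.98 times in B. The cause was not tested. One region stood apart from this relation, that on 2L from 19190198 to 19191403. It had 103 fragments in each library, or 16.5 and 5.20 times the mean, at summits 543 bp apart. The Jarid2 B value is that of the highest fold among its 3 peaks there, so the heights belong to different positions.

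Ranking by height gave other regions than ranking by fold. None of the 10 strongest by fold was among the 10 tallest, a ranking added after the data were seen. The tallest region was on 2R from 15713710 to 15714368, with 136 fragments in Jarid2 A and 277 in B and summits 4 bp apart. Its folds were 5.31 and 2.70, with a background of 24.8 fragments in Jarid2 A and 25 in B. The second, on 3L from 14267288 to 14268265, had 136 and 259 fragments and folds of 6.40 and 1.93. By fold it ranked 6 in Jarid2 A and 337 in B. A region on 3R from 11491777 to 11492404 was tall, with 111 and 258 fragments, and had folds of 4.96 and 5.46, with a background of 11 fragments in Jarid2 B.

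The background at these regions was above its genome-wide floor in nearly all cases. It had a median of 2.70 times the floor in Jarid2 A and 2.63 times in B. Of the 334 regions with 1 solution, it was a whole number of control fragments, within 0.002, in 289 in Jarid2 A, or 86.5%, and in 275 in Jarid2 B, or 82.3%. A window of 1 fragment length at the summit gives such whole numbers, while averages over wider windows need not be whole. Of all 347 regions, 5 and 3 were at the floor. The control was thus also locally high at the summits, and the part of this in the calls was not tested.

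The regions were compared with the other Jarid2 regions of the arms by 1 difference of medians in each library. With 2 libraries an exact permutation test by sign flips, two-sided, cannot give a p below 0.5, so the differences are given with their direction only. Against the 277 Jarid2-only regions closer to Pcl, the median fold was lower by a small amount in both libraries (3.39 against 3.42 in Jarid2 A, 2.95 against 2.98 in Jarid2 B). Fragments at the summit were 59 against 57 in Jarid2 A and 173 against 167 in Jarid2 B, where 334 and 266 regions had 1 solution. The background was 2.70 against 2.50 times the floor in Jarid2 A and 2.63 against 2.42 times in Jarid2 B. All of these medians differed by little beside the quartiles of the regions.

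Against the 87 regions called in all 4 lists, the distant regions had more fragments at the summit in both libraries, 59 against 41 in Jarid2 A and 173 against 125 in Jarid2 B. Fragments, height and background are those of the peak with the highest fold in a region, which need not be its tallest. More than 1 peak lay in 57.5% of the 87 regions in Jarid2 A and in 43.7% in Jarid2 B. In the distant regions these shares were 2.59% and 0.86%, so the choice of peak bears mostly on the 87. The folds of the distant regions were not higher, with medians of 3.39 against 3.53 and 2.95 against 3.09. The background moved with the height. It was 2.70 against 1.797 times the floor in Jarid2 A and 2.63 against 1.82 times in Jarid2 B, and it was a whole number of control fragments in 55.2% and 52.9% of the 87 regions called in all 4 lists. Among the 200 tallest of 714 Jarid2 regions in Jarid2 A, 110 were distant Jarid2-only regions, or 55.0%, and 13 were called in all 4 lists, where the shares among all 714 were 46.8% and 11.9%. In Jarid2 B the counts were 109 and 10. By fold the order was not the same. Among the 200 regions with the highest fold of the 740, 85 in Jarid2 A and 91 in Jarid2 B were distant, or 42.5 and 45.5% against 46.9% of all, and 24 in each were called in all 4 lists.

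**Figure D3:**
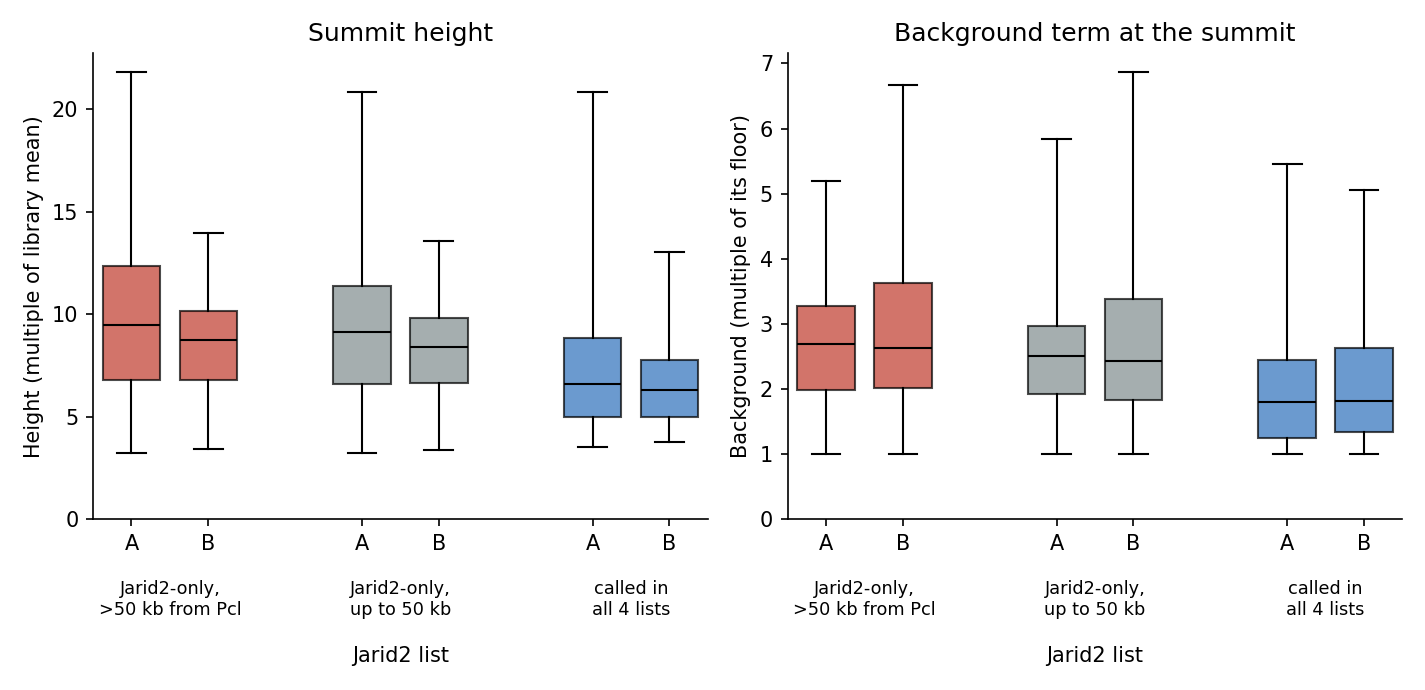
Summit height as a multiple of the library mean (left) and background term as a multiple of its genome-wide floor (right), in Jarid2 A and Jarid2 B, for 334 distant Jarid2-only regions, 266 Jarid2-only regions up to 50 kb from Pcl and 85 regions called in all 4 lists. Boxes give quartiles and median, and whiskers the full range. Both values are those of the peak with the highest fold in a region. They are lower in the regions called in all 4 lists, with median heights of 6.58 and 6.31 against 9.47 and 8.73.

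The regions were spread over all arms, with 83 on 2L, 82 on 2R, 97 on 3L and 85 on 3R. Each arm was measured from its first base to the last peak of the 4 lists on it. Sequence beyond that peak was left out of all lengths and densities. So measured, the arms together spanned 95.2 Mb, and 53.8 Mb of it, or 56.5%, lay more than 50 kb from every Pcl peak. Per Mb of such sequence there were 6.70 regions on 2L (exact Poisson 95% interval 5.34 to 8.31), 6.77 on 2R (5.38 to 8.40), 7.28 on 3L (5.90 to 8.88) and 5.31 on 3R (4.24 to 6.57). The intervals overlapped. The median fold was lowest on 3R in Jarid2 A, at 3.26, and highest on 2R, at 3.58. In Jarid2 B it was lowest on 2L, at 2.80, and 3.07 on both 2R and 3L. Median widths were 306 to 329 bp and median summit distances 17 to 19.5 bp, so the arms differed little in either. When each arm was cut into 4 equal lengths, the second of them held 30 regions on 2L and 30 on 2R, or 10.2 and 10.5 per Mb, and the sparsest were the last of 3R, with 14 or 3.16 per Mb, and the first of 2R, with 12 or 3.81 per Mb. On 3L the 4 lengths held from 23 to 25 regions.

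The density was similar on both sides of 50 kb. Jarid2-only regions numbered 6.68 per Mb of sequence at 20 to 50 kb from Pcl (5.53 to 7.997) and 7.60 per Mb at 50 to 100 kb (6.44 to 8.89), with 118 and 154 regions. At 100 to 200 kb there were 6.22 per Mb (5.19 to 7.40, 128 regions). Beyond 200 kb there were 5.004 per Mb (3.86 to 6.38, 65 regions), and this interval ended just below that at 50 to 100 kb. Within 5 kb of Pcl there were 8.498 per Mb (6.62 to 10.7). Median folds were 3.36, 3.56 and 3.48 in Jarid2 A and 2.92, 3.04 and 2.86 in Jarid2 B in the 3 bins beyond 50 kb, with no steady direction.

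**Figure D4:**
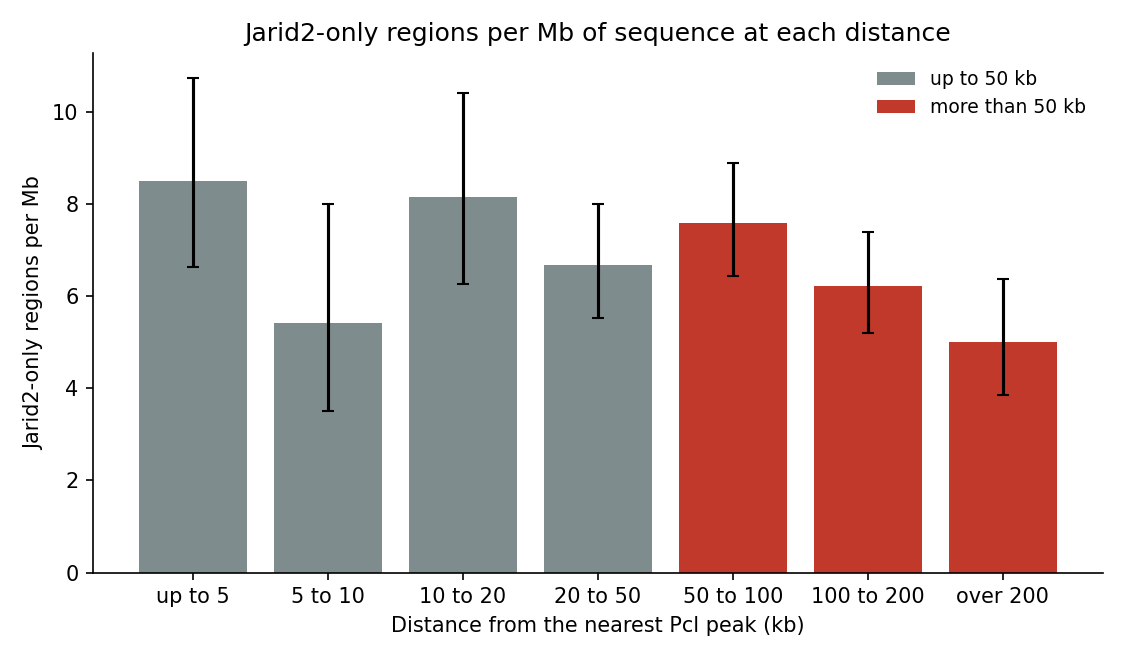
Jarid2-only regions per Mb of sequence (y axis) in bins of distance from the nearest Pcl peak in kb (x axis), grey up to 50 kb and red beyond, on 2L, 2R, 3L and 3R. Lines are exact Poisson 95% intervals, which cover counting error only. Sequence beyond the last peak of an arm was not counted. The bar beyond 200 kb, at 5.004 per Mb, is the lowest of the 7 bins.

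The median distance from the nearest Pcl peak was 108 kb, with quartiles of 77.1 and 179 kb. The farthest was the region on 3L from 17480650, at 595 kb, which was also among the 10 strongest. Next were those on 3R from 11068307 to 11068640, at 586 kb (folds 3.09 and 3.84 in Jarid2 A and B), and on 3L from 17414395 to 17414693, at 530.3 kb (3.91 and 3.30). At the threshold, the closest members were on 2L from 21573355 at 50.4 kb (folds 2.87 and 2.11) and on 2R from 18616586 at 50.5 kb (3.01 and 2.35). Just outside the rule were regions on 2R from 15212812 at 49.6 kb (3.48 and 2.52) and on 3L from 14699802 at 49.5 kb (3.26 and 3.00).

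Up to the last peak of each arm, sequence far from Pcl formed 253 stretches with a median length of 158 kb. A member lay in 139 of them, and 56 held exactly 1. The longest of these stretches without any was 593 kb, on 3L from 22922089 to 23514871, where Jarid2 A had 3 peaks and Jarid2 B none. The stretch with most members was on 3L from 16934072 to 18026521, with 20 regions in 1092 kb, and no other stretch held more than 8. Its density of 18.3 per Mb was exceeded in shorter stretches, such as that on 2R from 14247525 to 14476993, with 8 regions and 34.9 per Mb. Sequence beyond the last peak of an arm was again not counted. The longest lengths without a member were on 2R from 1 to 2129575, on 3R from 2233024 to 4303119 and on 2L from 10801147 to 12822634. The gap on 3R held 378 Pcl A and 345 Pcl B peaks, and that on 2L held 181 and 125. The gap on 2R held 30 and 18. Jarid2 regions that did not meet the rule lay in each gap, 5 on 3R, 12 on 2L and 4 on 2R.

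Most regions stood alone. The nearest other member was a median of 43.3 kb away (quartiles 13.6 and 136 kb), and 288 had none within 5 kb. The remaining 59, or 17.0% (Wilson 95% interval 13.4 to 21.3%), fell into 25 groups, of which 21 were pairs. Among all 740 Jarid2 regions of the arms 18.2% had another within 5 kb. Another 3 groups held 3 members each, on 2L from 9176320 to 9177269, on 2L from 16791560 to 16799215 and on 3L from 18005862 to 18013161. In the first of these, 3 regions lay side by side in less than 1 kb, and their folds were 2.20 to 3.55 in Jarid2 A and 2.87 to 3.56 in Jarid2 B. They were 218 kb from the nearest Pcl peak.

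The largest group held 8 regions in 11.3 kb on 3L, from 17981399 to 17992708. Folds ranged from 2.47 to 4.65 in Jarid2 A and from 2.65 to 5.14 in Jarid2 B, with the highest in both libraries at its right end, in the region from 17992297 to 17992708. That region had 93 fragments in Jarid2 A and 222 in B. The other 7 had at most 46 and 107. Summits in this group lay a median of 117 bp apart, with 2 of 8 within 50 bp. In the 71.3 kb around it Jarid2 A had 32 peaks and Jarid2 B 14, which made 12 regions called in both, and neither Pcl list had any. The 330 regions outside groups of 3 or more had summits within 50 bp in 87.6%.

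**Figure D5:**
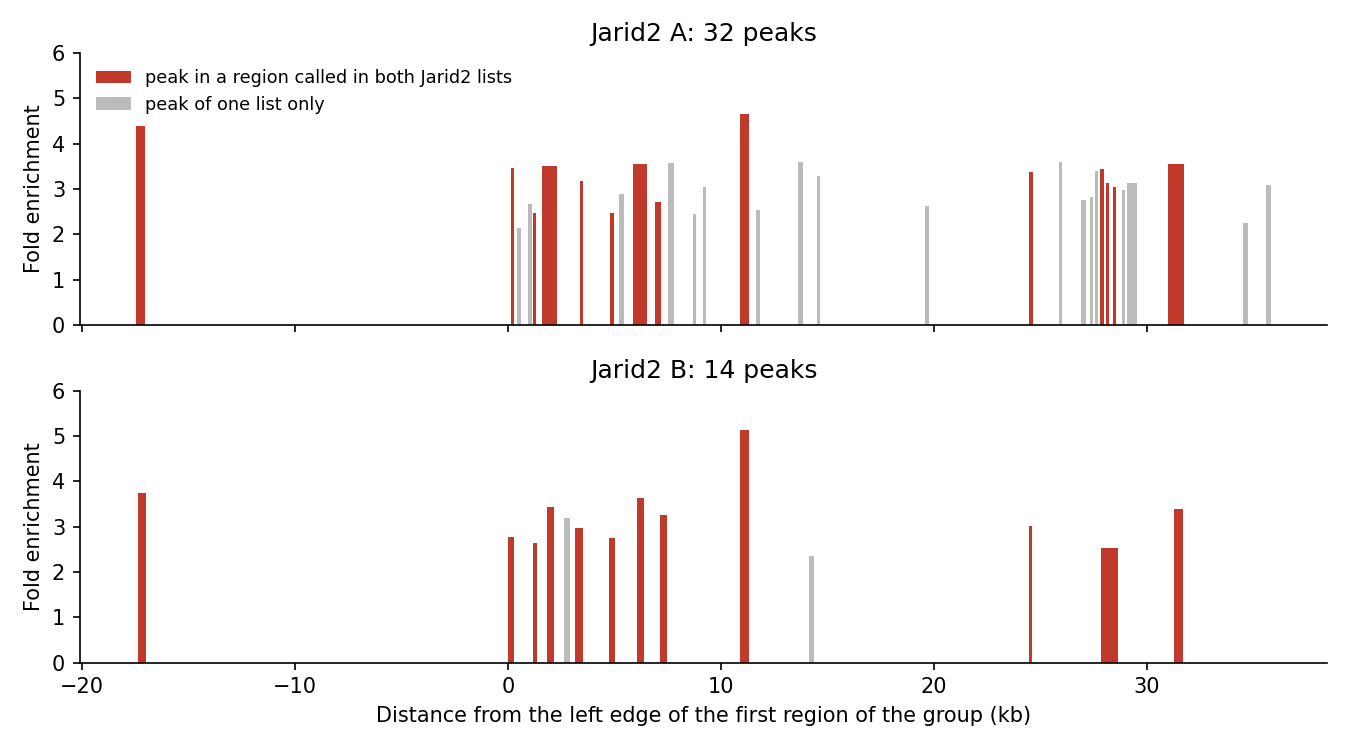
Peaks of Jarid2 A (top) and Jarid2 B (bottom) around the group of 8 regions on 3L. The x axis is the distance in kb from the left edge of the first region, the y axis the deposited fold of the peak, and the width of a bar that of the peak. Red peaks lie in regions called in both Jarid2 lists and grey ones in 1 list only; the highest bar in both libraries is that 11 kb from the start, with folds of 4.65 and 5.14.

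The rule keeps only sites called in both Jarid2 lists. More than 50 kb from Pcl on these arms there were 695 Jarid2 A and 390 Jarid2 B peaks. Of the Jarid2 A peaks 357, or 51.4% (Wilson 95% interval 47.7 to 55.1%), were overlapped by a Jarid2 B peak, and of the Jarid2 B peaks 351, a share with an interval of 86.6 to 92.6%, by a Jarid2 A peak. At up to 50 kb from Pcl, without touching it, these shares were 45.9% and 88.9%. The 338 distant Jarid2 A peaks with no counterpart had a median fold of 2.77 against 3.38 with one. The 39 distant Jarid2 B peaks with no counterpart had a median fold of 2.94 against 2.95, and a median −log10 p of 6.41 against 8.88.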

How the data were processed

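ChIP-seq peak lists of 4 immunoprecipitated libraries from embryos were used, and no list of the 2 inputs was used here. Per the submitters' processing notes, Trimmomatic 0.36, Bowtie 1.2.2, MACS2 2.1.1 and deepTools 3.0.2 were used with build dm3. Their settings and the control of each list are not given in the sources used here. Per the labels' protocols, fixation was in 3% formaldehyde for 30 min, fragments of 250 to 500 bp were cut from a gel, and PCR had 10 to 12 cycles. The deposited fold of a peak is a linear ratio over the caller's background. Beside it the deposited lists hold a −log10 p, a −log10 q and a score of the authors' caller.

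The 347 regions and all comparisons were chosen with earlier results of these data known. Distances are between nearest edges, and a region's fold is the highest of its peaks in a list. Summit, fragments and background are those of that peak. Fragments k and background b at a summit were searched up to 2000 so that fold = (sk + 1)/(b + 1) and p is the Poisson chance of more than the whole part of sk given b, where s scales the library to its control (1 in Jarid2 A and 0.250 in Jarid2 B). The search and the choice of regions were tested on simulated data. The regions named are, by rule, the 10 smallest mean ranks of fold, the 3 widest, the 3 farthest from Pcl, the 3 with summits farthest apart, the groups with most members (4, because of ties), the 3 longest gaps and the 2 regions on each side of the threshold. The tall regions and the stretches were named after their values were seen. Alternatives changed the distance, the merging, the q, the overlap, the Pcl rule and the libraries. A planned motif search needs a dm3 genome and was not run. The work used pandas 2.3.3 with numpy 2.4.6 under Python 3.11.15, intervals from scipy 1.17.1, and plots by matplotlib 3.10.9.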

Additional observations from a re-analysis of the deposited data

How the results depend on the processing

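Most alternative values, 97, stayed within the reported 95% interval or within 1.5 times the reported count, and 22 did not. Of the ratios of heights, both medians split by height in Jarid2 B, 1.02 and 1.25, left that interval. A distance of over 100 kb left 193 regions, with 23.3% on 3L, 29.5% on 3R and 12.95% with another within 5 kb. A q at or below 1e-05 for the Jarid2 peaks alone left 187 regions, with median folds of 3.83 and 3.43, a width of 341 bp and 5.35% with another within 5 kb. The same q for all lists gave 240 regions, with folds of 3.88 and 3.48, a width of 345.5 bp and 6.67%. Merging across 1 kb gave 8.51%. Some counts within 1.5 times the reported 347 still differed from it by many regions. There were 465 at over 20 kb from Pcl. When only Pcl regions of both Pcl lists kept a region out there were 497. Ranked by summit height, 0 of the 10 strongest regions stayed among the first 10.

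Leaving out each list in turn gave 372 to 695 regions, a median fold of 3.04 to 3.45 in Jarid2 A and of 2.95 to 2.99 in Jarid2 B, a width of 239 to 318 bp, and 16.4 to 37.0% with another within 5 kb. The highest count and share, and the lowest width and fold in Jarid2 A, were those without Jarid2 B. The requirement of a peak in both Jarid2 lists no longer holds in that case. Without Jarid2 A there were 390 regions with a width of 251 bp. No paired analysis was possible because no result comes from a test between groups, and the letters A and B are not stated to pair the libraries. The depth of Jarid2 A, a median of 59 fragments at a summit, limits the precision of single regions. The background in Jarid2 B, the denominator of its fold, rests on fewer still, with a median of 13 fragments, and limits single folds there.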

Other observations

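The recovered scales gave values for the controls as well. In Jarid2 A the immunoprecipitated library had 0.400 times the depth of its control, and in Jarid2 B it had 4.001 times. Per base, the control of Jarid2 A was thus 3.46 times as deep as that of Jarid2 B, although the labels list 1 Jarid2 input. Which control each list was called against is not given in the sources used here.

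The highest number of fragments at any summit of the whole list came to 276 in Jarid2 A, the less deeply sequenced library, and to 277 in Jarid2 B. In Jarid2 B that summit was the tallest of the distant Jarid2-only regions, on 2R from 15713710 to 15714368. In Jarid2 A the highest of these regions had 136 fragments.

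A tall pair of distant regions lay side by side on 3L, from 15721173 to 15721899 and from 15722525 to 15723459, and both were among the 10 tallest. In Jarid2 A they had 118 and 124 fragments, and in Jarid2 B 258 and 263. Both were chosen after their values were seen.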
